A study of Mus musculus with 4 samples.

Results

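KAP1 summits were examined at 8 genes that set up or keep the T lineage and the naive T cell state, namely Tcf7, Lef1, Tox, Satb1, Bcl11b, Myb, Ets1 and Themis. The genes were chosen by name, and all 8 were found among the 21900 protein-coding genes with a position in the NCBI RefSeq table of GRCm38.p6, whose coordinates are those of mm10. The data are KAP1 ChIP-seq, in which an antibody against KAP1 (1Tb-A9) was used to precipitate sonicated chromatin, from regulatory T cells of the spleen of C57BL/6 mice that had been sorted and then kept in culture for 2 weeks. All samples share this strain, tissue and culture, and no genotype or treatment separates them. There are 2 KAP1 samples, each with 1 deposited list of peak summits, and 2 input samples made without antibody, which were not analysed here. Whether separate animals or cultures gave the replicates is not stated in the labels, and their difference may be technical. Peak lists do not measure expression, so the cell type could not be checked against its markers.

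KAP1, the product of Trim28, acts as a corepressor for KRAB zinc finger proteins and recruits histone H3 lysine 9 methylation and heterochromatin proteins. It has also been found at gene promoters and enhancers outside heterochromatin. Among the 8 genes, Tcf7 and Lef1 encode the related HMG box factors TCF-1 and LEF-1, which act early in thymocyte development and stay high in naive and memory-like T cells. Tox encodes a further HMG box protein, needed for CD4 lineage development in the thymus and known from exhausted T cells. Satb1 encodes a protein that organises chromatin loops in thymocytes and takes part in setting up the regulatory T cell enhancers. Bcl11b encodes a zinc finger factor that commits progenitors to the T lineage, Myb and Ets1 encode DNA-binding factors of lymphoid development and T cell survival, and Themis encodes a signalling protein that tunes T cell receptor signals during thymic selection.

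The sequences that the positions below refer to are 250 bases before and 30 bases from the listed transcript start of 4 genes, given 5′ to 3′ on the strand of the gene and taken from RefSeq (GRCm38.p6). Promoter windows were listed for 6 of the 8 genes, 15 windows in all. A listed window holds 250 bases before and 50 bases from the start, and the shares of windows given below refer to that length. The Themis window is shown because it was the only gene start of the 6 at which a summit fell inside a listed window, and its capitals run from the replicate 1 summit to the replicate 2 summit. It lies at chr10:28668110-28668389 on the plus strand.
Themis: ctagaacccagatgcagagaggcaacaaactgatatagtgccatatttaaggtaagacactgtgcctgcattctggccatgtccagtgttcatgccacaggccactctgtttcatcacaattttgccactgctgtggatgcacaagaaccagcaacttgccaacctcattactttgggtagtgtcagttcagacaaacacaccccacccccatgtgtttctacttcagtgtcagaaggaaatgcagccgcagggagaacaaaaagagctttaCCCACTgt
The Lef1 window belongs to a start inside the gene, and is shown because a shared summit lay 1321 bp downstream of that start. It lies at chr3:131156044-131156323 on the plus strand. Its capitals mark matches to the TCF/LEF core CTTTGA, which reads TCAAAG on the other strand, and to the GATA core AGATAA.
Lef1: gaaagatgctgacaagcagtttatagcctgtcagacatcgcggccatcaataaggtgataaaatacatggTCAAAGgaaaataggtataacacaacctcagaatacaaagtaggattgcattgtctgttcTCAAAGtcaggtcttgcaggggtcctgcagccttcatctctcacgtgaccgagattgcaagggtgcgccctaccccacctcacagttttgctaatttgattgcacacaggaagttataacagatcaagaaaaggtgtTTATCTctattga
The Bcl11b window, at chr12:108003385-108003664 on the minus strand, is shown because summits lay just upstream of it. Its capitals mark the TCF/LEF core.
Bcl11b: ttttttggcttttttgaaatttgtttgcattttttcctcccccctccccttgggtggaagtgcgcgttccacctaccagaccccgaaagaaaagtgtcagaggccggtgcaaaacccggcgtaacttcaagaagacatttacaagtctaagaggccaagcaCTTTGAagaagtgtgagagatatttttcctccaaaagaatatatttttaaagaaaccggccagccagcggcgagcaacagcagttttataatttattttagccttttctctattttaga
The Tcf7 window, at chr11:52282566-52282845 on the minus strand, stands for the gene at which no shared summit was found. Its capitals mark the ETS core CCGGAA on the opposite strand.
Tcf7: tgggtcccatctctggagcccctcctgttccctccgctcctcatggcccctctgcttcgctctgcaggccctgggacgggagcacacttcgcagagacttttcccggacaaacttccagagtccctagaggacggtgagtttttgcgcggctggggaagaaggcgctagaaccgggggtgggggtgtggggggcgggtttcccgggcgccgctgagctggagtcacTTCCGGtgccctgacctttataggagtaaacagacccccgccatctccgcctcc

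Each summit is the base of highest enrichment of a peak and has a score from the peak caller, which is a p-value or a q-value on the −log10 scale. The scores are the authors' and are used only to describe or rank summits within a list. A percentile below is the rank of a score in its own list, with 100 as the highest. Replicate 1 has 8862 summits and replicate 2 has 79515. Summits were called shared where those of both replicates lay no more than 200 bp apart, and were counted and placed by replicate 1. An end is the 1 kb on either side of the lowest or highest coordinate of a gene, the body is the rest of the gene, and the flank is the sequence beyond the ends up to 20 kb.

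Shared KAP1 summits were found at or within 20 kb of 7 of the 8 genes. The share was 32.7% over all coding genes and 38.5% over those at least as long as the shortest of the 8. The 8 genes with their flanks held 25 summits of replicate 1, of which 23 were shared, and 80 summits of replicate 2. Of the 23 shared summits, 16 lay in gene bodies, 3 at ends and 4 in flanks. Bodies also make up most of the sequence searched, and ends little of it. The split was not corrected for this, so it shows no preference for the inside of genes. Lef1 had 6, Ets1 had 5, Tox and Bcl11b had 4 each, Themis had 2, Satb1 and Myb had 1 each, and Tcf7 had none. In replicate 2 alone, 40 further summits lay in bodies, 14 in flanks and 3 at ends. The 2 summits of replicate 1 alone both lay in the body of Bcl11b.

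A shared summit in the body was present in 6 of the 8 genes (75.0%), namely Lef1, Tox, Satb1, Bcl11b, Ets1 and Themis. Among coding genes long enough to have a body, 12.4% had one. The 8 genes are long, with a median length of 105.6 kb. Among the 6538 coding genes at least as long as Myb, the shortest of the 8 at 36055 bp, 22.9% had one. When replicate 2 was limited to as many of its highest scores as replicate 1 has summits, the count was 3 of 8, against 6.12% of coding genes long enough to have a body. The share among genes at least as long as Myb was not computed for this limit. An end summit was shared in 3 of the 8 genes (37.5%), namely Tox, Bcl11b and Themis, against 8.56% of all coding genes and 9.18% of the genes at least as long as Myb. The same 3 genes thus had shared summits both at an end and in the body, as 1.9% of coding genes long enough to have a body and 3.23% of the genes at least as long as Myb did. At or within 20 kb, the count was 7 of 8, against 32.7% and 38.5%. The count at ends fell to 2 of 8 with ends of 500 bp, against 5.94% of coding genes. The Tox end summit, 965 bp inside the gene, was the one lost. The count at ends was also 2 with scores at or above the list medians, against 5.0%. It was 2 again with replicate 2 limited to its highest scores, against 3.88%. The genes were proposed with earlier results of these data known, so these counts are given beside their background with no test.

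The replicate 2 list, taken alone, placed a summit in the body of all 8 genes, but it did so in 54.4% of coding genes long enough to have a body and in 87.6% of those at least as long as Myb, so this count is near the background of long genes. It placed one at an end of 5 of the 8, against 22.2% of all coding genes and 24.8% of the long ones, and one at or within 20 kb of all 8, against 80.9% and 93.5%. The replicate 1 list by itself gave the counts of the shared summits, 3 at ends against 9.42% of coding genes and 9.93% of the long ones, 6 in the body against 13.3% of those with a body and 24% of the long ones, and 7 at or within 20 kb against 34.3% and 39.9%.

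**Figure D1:**
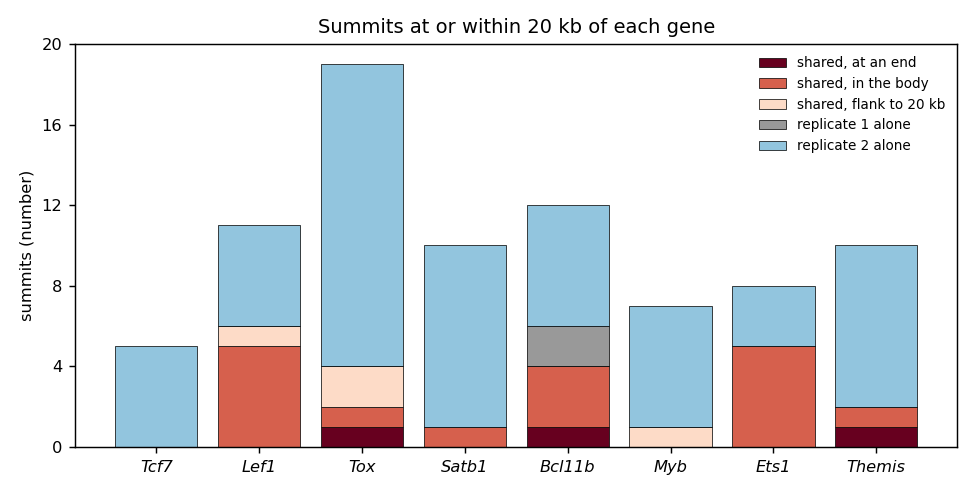
Number of summits at or within 20 kb of each of the 8 genes, stacked by place for shared summits and by list for the others. Shared summits range from 0 at Tcf7 to 6 at Lef1, and summits of replicate 2 alone from 3 at Ets1 to 15 at Tox.

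The paired summits of these genes lay close to each other. The median distance between partners was 5 bp, against 6 bp over all 7720 shared summits, 4 of the 23 pairs fell on the same base, and the longest distance was 120 bp. Of the 25 replicate 1 summits 23 were shared, against 87.1% of the whole list. For replicate 2 the share with a partner was 28.8%, against 9.71% of its list. That share rests on the same 23 shared summits and is no separate measure of agreement. The share among replicate 2 summits at or near coding genes was not computed. By score, the 23 ranked somewhat lower than shared summits in general. The median percentile of the 23 was 53.3 in replicate 1 and 76.1 in replicate 2, against 58.3 and 81.2 for all shared summits. At or above the median score of both lists were 11 of the 23, against 55.3% of all shared summits.

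**Figure D2:**
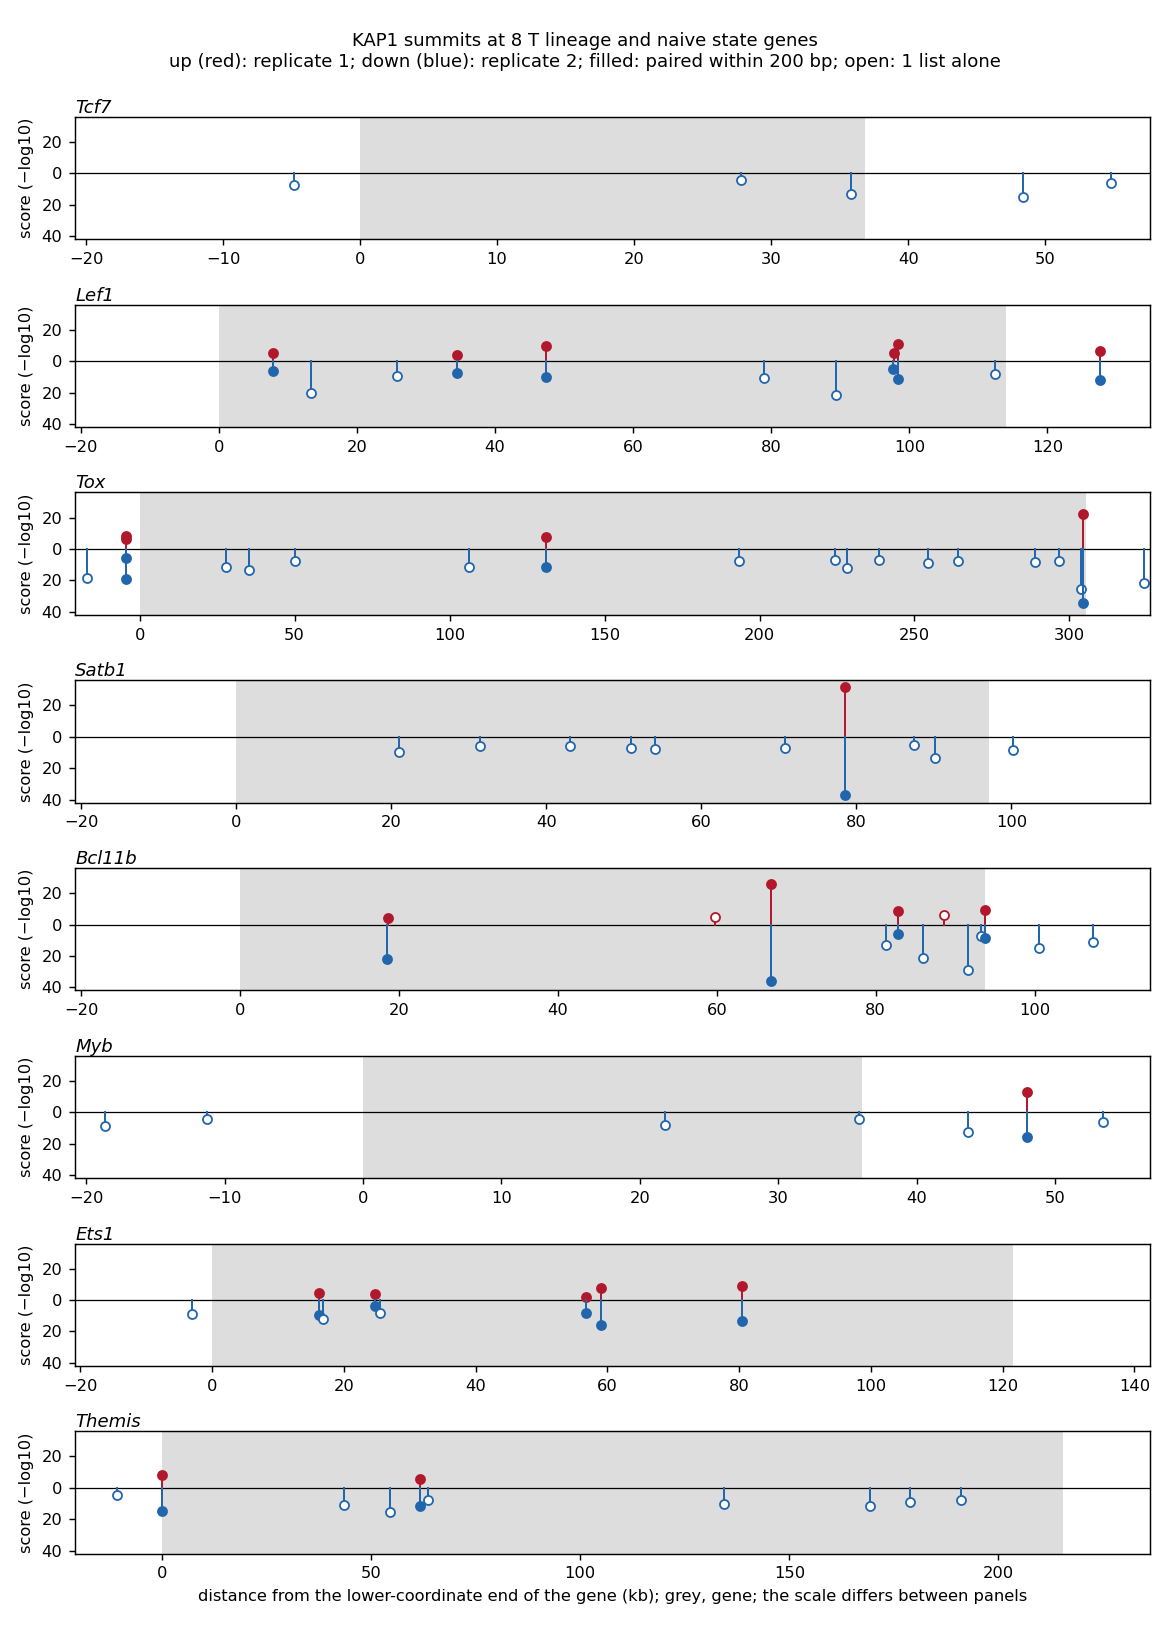
Position and score of every summit at the 8 genes, as distance in kb from the lower-coordinate end of the gene (grey) with 20 kb on either side. Replicate 1 points up and replicate 2 down, and filled circles are paired within 200 bp. Filled circles fall at the gene edge in Tox, Bcl11b and Themis, only inside the gene in Ets1 and Satb1, inside and beyond it in Lef1, only outside it in Myb, and nowhere in Tcf7.

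Tcf7 and Lef1, which encode related HMG box factors, stood at opposite ends of the range by count of shared summits. These genes differ in length, at 36857 and 114061 bp, and both had 0 with replicate 2 limited to its highest scores. Their replicate 2 summits per 100 kb of gene and flank were alike, at 6.51 for Tcf7 and 7.14 for Lef1. Tcf7, 36857 bp on the minus strand of chromosome 11, had no replicate 1 summit at an end, in the body or within 20 kb. Replicate 2 placed 5 summits there, with scores from 4.16 to 14.7. The highest, at position 52294901, lay in the flank 11518 bp beyond the higher end. One at position 52282392 (score 13.1, percentile 83.0) lay within 1 kb of the higher end, 203 bp downstream of the second listed Tcf7 start, the one whose window is printed above. The flank summit below the gene lay at Skp1, a neighbouring gene for a ubiquitin ligase subunit. With flanks of 50 kb, 1 shared summit was counted for Tcf7. Among the 6417 coding genes at least as long as Tcf7, 61.6% likewise had no shared summit within 20 kb, and its 5 replicate 2 summits were close to the median of 6.

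Lef1, 114061 bp on the plus strand of chromosome 3, had the most shared summits of the 8 genes. Of the 2037 coding genes at least as long, 1.47% had 6 or more. None of its summits was at an end. Of its 6 shared summits, 5 lay in the body and 1 in the flank.
The first, at position 131118090, lay 5299 bp downstream of a listed internal start and had low scores in both lists, 5.10 in replicate 1 and 6.47 in replicate 2. At position 131144839 the scores were 4.17 and 7.40. The third body summit fell on the same base in both lists, position 131157615, with scores of 9.86 and 10.2. It lay 1321 bp downstream of the internal start whose window is printed above, with its 2 TCF/LEF core matches 180 and 120 bp before that start.
Towards the far end of Lef1, a pair of shared summits lay 536 bp apart. The one at position 131208620 was on the same base in both lists (10.7 and 11.3), and the one at 131208084 was 94 bp from its partner and weaker (5.10 and 4.95). The flank summit, at position 131237837 (6.59 and 12.2), lay 13480 bp beyond the gene, at Hadh, which encodes a mitochondrial enzyme of fatty acid oxidation. Only 2 of the 6, those at 131157615 and 131208620, were at or above the median of both lists, and none of the 6 remained with replicate 2 limited to its highest scores. The highest scores in the gene belonged to replicate 2 alone, 21.5 at position 131199685 and 20.4 at 131123633.

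Tox, the longest of the genes at 305205 bp on chromosome 4, had a strong shared summit at its higher end. It lay at position 6990592, 965 bp inside the gene, with a score of 22.5 in replicate 1 (percentile 90.9) and 34.6 in replicate 2 (percentile 98.5). A replicate 2 summit at position 6990046, 1511 bp from the same end, had no replicate 1 partner, with a score of 25.3 (percentile 97.2). Below the lower end, a pair of shared summits lay 278 bp apart in the flank. The one at position 6681810 scored 8.40 and 19.1 and lay 4543 bp from the gene, and the one at 6682088 scored 6.38 and 5.47. The single shared body summit, at position 6817404, scored 7.64 and 11.4. Of the 546 coding genes at least as long as Tox, 4.03% had 4 or more shared summits. With replicate 2 limited to its highest scores, 2 of the 4 were left at Tox. The remaining 15 summits of replicate 2 were spread over the gene and its flanks, with a median score of 8.80.

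Satb1 had 1 shared summit, and it ranked highest of all 23. The gene spans 97104 bp on the minus strand of chromosome 17, and the summit lay in the body at position 51814667, with scores of 31.9 (percentile 95.8) and 37.4 (percentile 98.8). It was 2483 bp upstream of a listed internal start of Satb1 and 18623 bp from the higher end, where the first listed start lies. The other 9 replicate 2 summits were weaker, with scores from 5.28 to 13.6. The strongest of these, at position 51826331, lay 257 bp downstream of another listed internal start. No summit of either list lay at an end of Satb1. One or more shared summits were found at 36.2% of the 2516 coding genes at least as long.

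Bcl11b, 93743 bp on the minus strand of chromosome 12, had 3 shared summits in the body and 1 at the higher end. The body summit at position 107977204 was the second highest of the 23 by mean percentile, with scores of 25.7 and 35.7, and lay 26210 bp downstream of the listed start. At position 107928956 the score was near the lower end of replicate 1 (4.32, percentile 18.2) and high in replicate 2 (21.7, percentile 96.1). The reverse held at position 107993271, with 8.72 in replicate 1 (percentile 62.8) and 6.34 in replicate 2 (percentile 17.3).
The end summit of Bcl11b, at position 108004137, was 8 bp inside the gene and 723 bp upstream of the listed start, with scores of 9.50 and 8.27. A replicate 2 summit without a partner lay between them, 284 bp upstream of the start and outside the printed window, with a score of 7.14. Further replicate 2 summits without a partner included the strongest such summit of the 8 genes, 28.8 at position 108002063, 1351 bp downstream of the start. The 2 replicate 1 summits without a partner, at 107970160 and 107998946, scored 5.10 and 6.16. Of the 2619 coding genes at least as long as Bcl11b, 4.28% had 4 or more shared summits. The 4 at Bcl11b became 1 with scores at or above the list medians and 2 with replicate 2 limited to its highest scores.

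Myb, 36055 bp on the minus strand of chromosome 10, had its shared summit outside the gene. It lay at position 21172904, 11920 bp upstream of the listed start, with scores of 13.1 (percentile 76.2) and 15.9 (percentile 91.1). Inside the gene, replicate 2 placed 2 summits. The one 216 bp downstream of the start was among the weakest of its list (4.52, percentile 2.97), and the one in the body scored 8.31. With flanks of 5 kb Myb had no shared summit, and with flanks of 50 kb it had 4. The share of the 6538 coding genes at least as long with a shared summit within 20 kb was 38.5%, so Myb stands near the background.

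Ets1, 121580 bp on chromosome 9, had all of its 5 shared summits in the body. They lay from 16246 to 80403 bp above the lower end, leaving the part near the higher end without a summit of either list. At positions 32652487 and 32660924 both lists named the same base, with scores of 4.19 and 9.57 at the first and 4.17 and 3.98 at the second.
The summit at 32692928 was 120 bp from its partner, the longest distance of the 23, and had the lowest replicate 1 score of the 23 (2.06, against 8.43 in replicate 2). The 2 strongest were at 32695254 (7.64 and 16.0) and 32716644 (8.72 and 13.2). Only these 2 were at or above the median of both lists. With replicate 2 limited to its highest scores 1 shared summit was left at Ets1, and with summits within 1000 bp merged 3 were. Of the 1896 coding genes at least as long as Ets1, 2.27% had 5 or more shared summits, while 62% had at least as many replicate 2 summits as its 8.

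Themis, 215461 bp on the plus strand of chromosome 10, had a shared summit directly at its start. It lay at position 28668382 in replicate 1 (score 8.34, percentile 58.3) and 28668387 in replicate 2 (14.9, percentile 88.9), 22 and 27 bp downstream of the first listed start and 13 and 8 bp upstream of the second. These are the capital letters of the sequence above. A shared summit inside a listed promoter window was rare, at 2.1% of all 32851 windows of the RefSeq table (3.67% for a replicate 2 summit), and the 2 overlapping Themis windows were the only ones of the 15 windows of these genes to hold one. In the body, a shared summit at position 28730048 scored 5.56 and 11.6. The other 8 summits at Themis were of replicate 2 alone, with scores from 4.78 to 15.6. A count of 2 or more was found in 15.5% of the 901 coding genes at least as long, and 1 of the 2 was left at Themis with scores at or above the list medians or with replicate 2 limited to its highest scores.

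**Figure D3:**
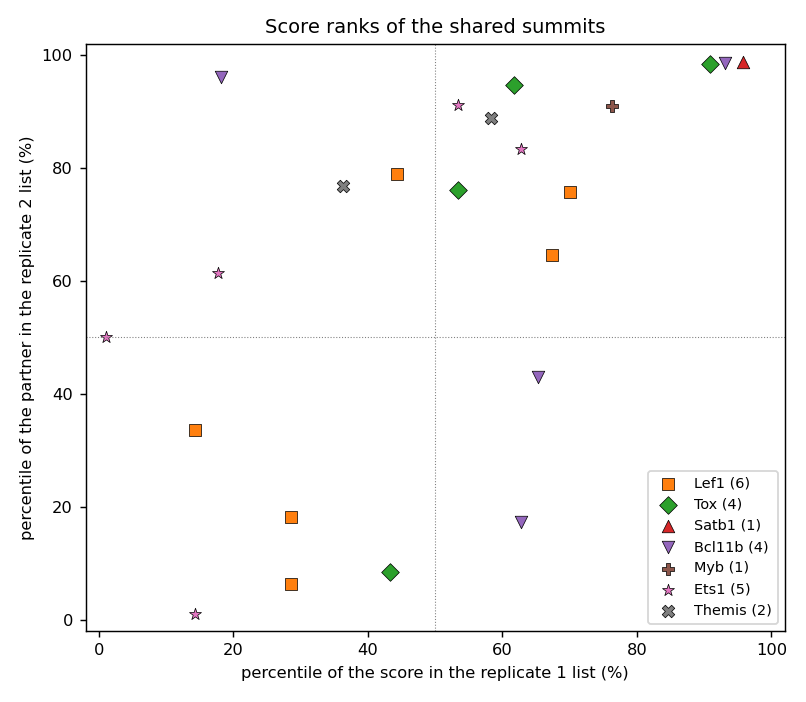
Percentile of each of the 23 shared summits in the replicate 1 list (horizontal) and of its partner in the replicate 2 list (vertical), both in percent, with dotted lines at the medians. Satb1, Bcl11b and Tox each have 1 summit in the upper right corner, while Lef1 has 3 below the median of both lists and Ets1 and Tox have 1 each.

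Lef1 and Ets1 had the most shared summits but not the highest-ranking ones. The 3 summits that ranked highest in both lists lay in Satb1, Bcl11b and Tox, with 1 in each gene, while the median percentile in replicate 1 was 36.4 over the 6 summits of Lef1 and 17.8 over the 5 of Ets1. Per 100 kb of gene and flank, Lef1 had 3.89 shared summits, Ets1 3.09 and Bcl11b 2.99, which 5.56%, 7.86% and 8.19% of all coding genes reached. Myb had 1.31, Tox 1.16, Themis 0.783 and Satb1 0.729, which 25.2% to 30.2% of coding genes reached. The median was 3 shared summits per gene over the 8 genes and 0 over all coding genes and over those at least as long as Myb. For replicate 2 summits the medians were 10 over the 8 genes and 5 over the genes at least as long as Myb. The latter are shorter, with a median length of 76854 bp against 105582 bp. Set against coding genes at least as long as itself, each of the 8 was near the background in replicate 2 summits. The share with at least as many ran from 31.5% for Tox to 66.1% for Themis.

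**Figure D4:**
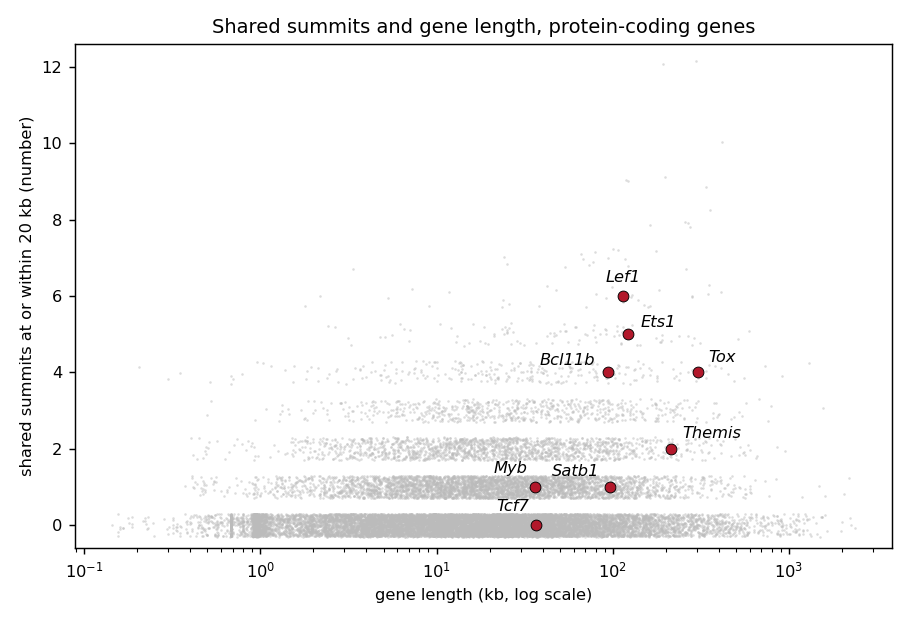
Shared summits at or within 20 kb against gene length on a log scale, for all 21900 protein-coding genes (grey, spread vertically by up to 0.3 so that points can be seen) and the 8 genes (red). Lef1, Ets1, Bcl11b and Tox lie highest of the 8, with 4 to 6 shared summits. Of coding genes at least as long as each of the 8, 61.5% (Myb) to 74% (Tox) had 0. Themis, Satb1 and Myb therefore also lie above most genes at least as long, while Tcf7 lies among the genes with 0.

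Of 11 paralogues of these genes, 1 had a shared summit at an end, 3 had one in the body and 5 had one at or within 20 kb, with 5 shared summits in all. These shares of 9.09%, 27.3% and 45.5% are near those of coding genes at least as long as Myb, 9.18%, 22.9% and 38.5%. The paralogues were Tcf7l1, Tcf7l2, Tox2, Tox3, Tox4, Bcl11a, Mybl1, Mybl2, Ets2, Fli1 and Themis2, and their median length of 97.0 kb is near that of the 8 genes. However, Themis2, Tox4, Ets2, Mybl2 and Mybl1, at 14522 to 33033 bp, are shorter than Myb. The paralogues are therefore not matched in length to the 8 genes or to the genes at least as long as Myb. Tcf7l1, which encodes a further TCF/LEF factor, was the one with an end summit (8.34 and 10.4). Fli1, which encodes an ETS factor and is nearly as long as Ets1 at 121229 bp, had 1 shared summit against 5 at Ets1. Bcl11a, at 96995 bp, had none against 4 at Bcl11b. Tcf7l1 and Tcf7l2 had 1 each against none at Tcf7, and Mybl2 had 1, as Myb did. All 11 had a replicate 2 summit in the body, where 87.6% of coding genes at least as long as Myb had one.

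Other genes of the T lineage and naive programme were taken from a list of 25. Shared summits lay at an end of 5 of them (20%, against 8.56% of all coding genes), in the body of 7 (28%, against 12.4% of genes with a body) and at or within 20 kb of 16 (64%, against 32.7%), with a median of 1 per gene and a median length of 23.6 kb. The 28% is of all 25 genes, although Id3, at 1571 bp, is too short to have a body. The 5 with an end summit were Bach2 (31.0 and 33.7), a repressor of effector differentiation, Cbfb (27.7 and 82.6), the partner of Runx factors, Il7r (11.9 and 10.2), the interleukin-7 receptor chain, Tcf3 (7.25 and 9.26), which encodes the E proteins E12 and E47, and Foxp1 (5.10 and 13.3), a factor of naive T cell quiescence. In the body, Bach2 (347697 bp) held 5 shared summits, and Foxp1 (597405 bp), Gata3 (30876 bp) and Runx1 (224609 bp) held 4 each. These counts were not set against genes of the same length. Cd8a, Hes1, Id2, Klf2, Notch1, Rag1, Rag2, Tcf12 and Zbtb7b had no shared summit within 20 kb, which is the more common state among coding genes. Klf2 encodes a factor of T cell quiescence and migration. Tcf12, at 267642 bp, had 22 summits of replicate 2 within 20 kb. Among coding genes at least as long as Themis, 70.6% had no shared summit.

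The promoter windows of the 8 genes held matches to core motifs of T cell factors at shares near or below those of all windows. Motifs were read on both strands, over 250 bases before and 50 bases from each listed start, so slightly further than the printed sequences. The TCF/LEF core CTTTGA was in 2 of the 15 windows, namely 1 of Lef1 and 1 of Bcl11b, against 16.0% of all windows. The ETS core CCGGAA was in 1 window, of Tcf7, against 14.9%, the GATA core AGATAA in 1, of Lef1, against 11.2%, and the RUNX core TGTGGT in none, against 16.8%. The MYB core AACNG is too short to separate windows, since 80.3% of all windows and 13 of these 15 held it. None of the TCF/LEF, ETS and GATA matches overlapped another of these 3. A match is a run of letters and not a site of binding.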

How the data were processed

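KAP1 ChIP-seq was measured in 2 samples, with 2 input samples. Products of 150 to 400 bp were selected, per the labels' protocols. The submitters' processing notes name Bowtie2 2.2.9, Picard 2.1.1, MACS2 2.2.1 and mm10, with settings, control and threshold not given in the sources used here. The deposited lists, 1 per sample and not pooled, score each summit by a p-value or a q-value on the −log10 scale, without saying which. Read depth is unknown.

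Positions were made 1-based and compared with the gene table in Python 3.11.15 (numpy 2.4.6, pandas 2.3.3). Gene ends are the outermost coordinates in that table, without strand, and listed starts came from the RefSeq promoter windows. No genome sequence was used. The counting was tested on simulated data. The 8 genes and both further lists, together with the rule to give every shared summit, were chosen with earlier results of these data known. From each further list 1 gene is not reported here. With 1 group there is no test. Alternatives were pairing within 50 or 500 bp, scores at or above each list's median, replicate 2 reduced to the length of replicate 1, summits within 1000 bp merged, each list alone, ends of 500 or 2500 bp and flanks of 5 or 50 kb.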

Additional observations from a re-analysis of the deposited data

How the results depend on the processing

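The counts of genes and summits were recomputed under each alternative. Of 36 recomputed counts over the 8 genes, 31 stayed within 1.5 times the reported value. With scores at or above the list medians, the 23 shared summits became 11. When replicate 2 was limited to its highest scores, as many as replicate 1 holds, they became 8, and genes with a shared summit in the body fell from 6 to 3. The share of coding genes with a body was then 6.12%, not matched for length. Using 1 list alone, genes with an end summit numbered 3 to 5, with a body summit 6 to 8, within 20 kb 7 to 8, and summits 25 to 80, the higher values from the longer replicate 2 list. Lef1 had no shared summit left with replicate 2 limited in this way, and Ets1 had 1. Of 72 counts for single genes, 21 moved by more than 1.5 times. Depth, which is unknown, limits what either list could hold, so a gene without a shared summit is one at which none was detected. No paired analysis was possible because the lists belong to 1 group and no test was made.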
